A study of Drosophila melanogaster with 6 samples.

Results

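The 4 genes described here lie beside domino (dom) on chromosome arm 2R of Drosophila melanogaster and were among the 3326 genes that differed between dom knockdown and wild type cells. They are crossveinless 2 (cv-2), Syndecan (Sdc), CG9485 and eEFSec. They were chosen by symbol, as genes of the authors' deposited table within 100 kb of dom, so their values in that comparison are a description and no test was made of them. The table also listed 2 other protein coding genes in this window, Arms and CG30393, which were not among the 4 and are given as neighbours. Because the table held only genes past the authors' threshold, each of the 4 had to show a change to be chosen.

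RNA was sequenced from cells of wandering larval brains that carried membrane-bound CD8-GFP and were sorted as live and GFP-positive, with 3 libraries per genotype. In the dom knockdown, virgins with UAS::Dcr-2, insc::Gal4 and UAS::CD8-GFP had been crossed to w1118 males that carried the hairpin UAS::dom-RNAi. In the wild type group the same virgins had been crossed to w1118 males without a hairpin, so both groups carried the Dicer-2 transgene and no control hairpin was used. The insc::Gal4 driver drives expression in neuroblasts, which are the stem cells of the larval brain, and the stable GFP also marks part of their progeny. Domino is a chromatin remodelling ATPase that works in the Tip60 complex, and the comparison asked which transcripts depend on it. The labels do not say whether the 3 sorts of a genotype used independent larvae, and the p-values then cover only the spread between these libraries, which may be technical.

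Bone morphogenetic proteins (BMPs) are secreted ligands that bind paired receptor kinases at the cell surface and signal to the nucleus through phosphorylated Smad proteins. How far they travel and how well they reach their receptors depends on secreted binding proteins such as Cv-2 and on proteoglycans, membrane or matrix proteins whose heparan sulfate chains hold many secreted signals. In the fly nervous system BMPs act on optic lobe patterning and motor neuron growth, and Syndecan is known for its part in Slit signalling and synapse growth. The other genes have unrelated roles: CG9485 is the fly counterpart of the glycogen debranching enzyme, and eEFSec encodes the elongation factor that brings selenocysteine to the ribosome.

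The table gave no value per library. Each gene had a mean normalized count over all 6 libraries (counts divided by the authors' size factors) and a log2 ratio with its standard error (SE). The header of that ratio names the control first. Read as control over knockdown, the authors' deposited table has dom itself lower in the knockdown, at 0.671 times the wild type level (log2 ratio -0.58, SE 0.11), and w, the eye colour gene that marks most fly transgenes, was 2.50-fold higher. All ratios are therefore turned here to dom knockdown over wild type, and if the header meant the reverse, every direction below would swap. Since dom helped to settle the sign, its ratio is no check of the sample labels. Genes listed at an adjusted p below 0.05 were 28.0% of the 11859 genes tested by the authors, 13.9% higher and 14.2% lower in the knockdown. At an adjusted p below 0.01 they were 19.7%, which cv-2, Sdc and eEFSec passed and CG9485 did not, and changes of at least 2-fold made up 8.40%, with cv-2 among them.

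cv-2 (FBgn0000395, dm6 2R:21355015-21379464, minus strand, protein coding) was much higher in the dom knockdown. In the authors' deposited table it was 7.50-fold higher, with a 95% interval from 6.57 to 8.56 made from the authors' SE (log2 ratio 2.91, SE 0.10, adjusted p 1.13e-192 by DESeq2). This was the smallest adjusted p of all listed genes, ahead of Culd at 1.54e-155, CG15930 at 2.25e-119 and Muc14A at 2.28e-108 in the authors' deposited table. The ratios of those 3 genes were larger in size than that of cv-2, since the authors' deposited table gave log2 ratios of -5.16 for Culd, 4.08 for CG15930 and 3.38 for Muc14A, but so were their SEs, at 0.19, 0.17 and 0.15. The next by adjusted p were lncRNA:CR45517, Pzl, lncRNA:CR42646, lncRNA:CR45973, Pxt and Rbp9.

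The place of cv-2 in the list came from a large ratio at a high count. Its mean normalized count was 4096 in the authors' deposited table, above that of 68.2% of listed genes. In all, 139 listed genes had a higher positive ratio than cv-2, and the median of their mean normalized counts was 24.5. Of the 1058 listed genes at least as abundant as cv-2, 2 had a higher positive ratio: the authors' deposited table gave log2 ratios of 7.47 for Arc1 and 5.28 for CG15784. Among the 539 listed genes within 1.5 times its mean, the median size of the log2 ratio was 0.42 and only Culd had a larger one. The SE of cv-2 was ordinary for its abundance, since the median SE of those 539 genes was 0.10 and 218 of them had a smaller one. No exon base of cv-2 is shared with another annotated gene.

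**Figure D1:**
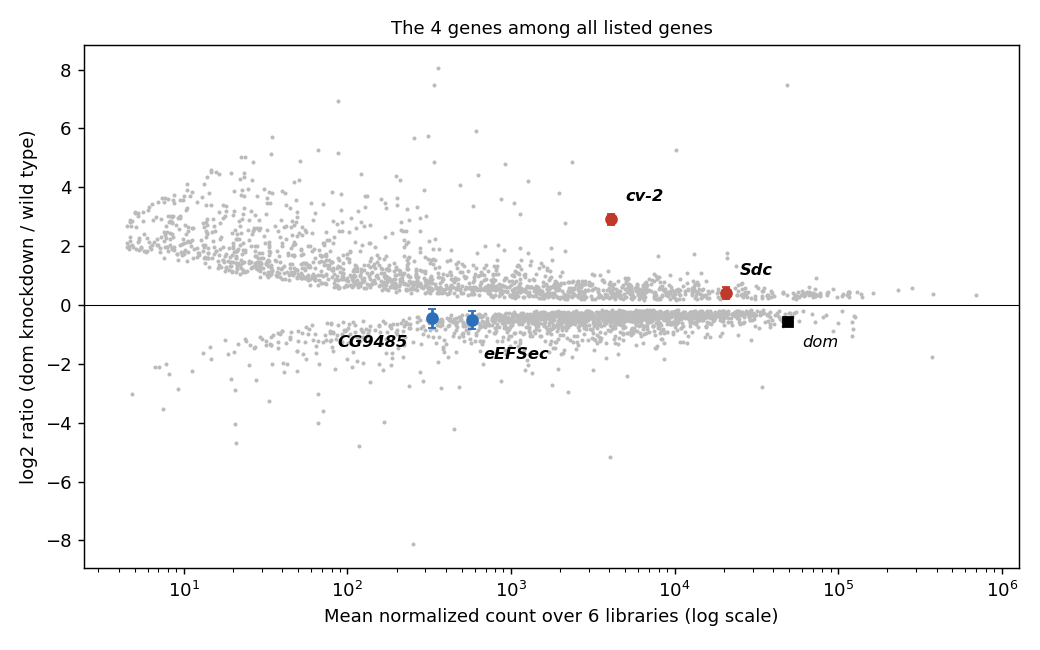
Log2 ratio (dom knockdown over wild type) against the mean normalized count over 6 libraries, on a log axis, for all 3326 listed genes in grey. The 4 genes are red where higher and blue where lower, with 95% intervals, and dom is the black square. cv-2 at 2.91 stands far above listed genes of its abundance. Sdc lies near the median size of its abundance, and most listed genes of like abundance to CG9485 and eEFSec changed more than they did.

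Sdc (FBgn0010415, 2R:21392402-21481176, minus strand, protein coding), the single syndecan of the fly and a transmembrane heparan sulfate proteoglycan, was also higher, but slightly. In the authors' deposited table it was 1.33-fold higher, with a 95% interval from 1.14 to 1.54 (log2 ratio 0.41, SE 0.11, adjusted p 0.00146 by DESeq2). Its mean normalized count of 20552 in the authors' deposited table, the highest of the 4, was above that of 93.3% of listed genes. Its ratio was close to the median size of 0.36 among the 218 listed genes within 1.5 times its mean. Of its exon bases, 38 (0.904%) are shared with Acox57D-d on the opposite strand.

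eEFSec (FBgn0034627, 2R:21384552-21386221, minus strand, protein coding) was lower in the dom knockdown, at 0.708 times the wild type level in the authors' deposited table, with a 95% interval from 0.571 to 0.879 (log2 ratio -0.50, SE 0.16, adjusted p 0.00893 by DESeq2). Its mean normalized count was 580 in the authors' deposited table. Among the 284 listed genes within 1.5 times its mean, 211 had a log2 ratio larger in size, and the median size was 0.63. It shares no exon base with another annotated gene.

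CG9485 (FBgn0034618, 2R:21312399-21319569, plus strand, protein coding) was lower as well, at 0.730 times the wild type level in the authors' deposited table, with a 95% interval from 0.582 to 0.915 (log2 ratio -0.45, SE 0.17, adjusted p 0.0261 by DESeq2). It had the lowest count of the 4, a mean of 328 in the authors' deposited table, and with every log2 ratio moved up by 0.1, as another centring of the libraries could do, it no longer passed, at -0.35. Among the 271 listed genes within 1.5 times its mean, 248 had a log2 ratio larger in size, and the median size was 0.77. Of the exon bases of CG9485, 30.2% are shared with CG33655 on the opposite strand. CG33655 was not listed, and because the labels do not say whether strand was kept, reads from the shared part cannot be assigned.

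On a scale per length, the mean normalized count per kb of annotated exon was 4891 for Sdc, 946 for cv-2, 360 for eEFSec and 59.7 for CG9485. The same level was 3770 for dom, and the median over listed genes with a known position was 612. These levels are averages over both genotypes, since the table has no level per group. In a bulk sample, a larger share of cells with a transcript and more of it per cell cannot be told apart.

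The 4 genes form no block of shared direction around dom. From left to right along the chromosome, CG9485 ends 3.86 kb before dom and was lower. To the right of dom, cv-2 lies 13.2 kb away and was higher, eEFSec lies 42.7 kb away and was lower, and Sdc lies 50.6 kb away and was higher. The gap between the gene bodies of cv-2 and eEFSec, which are on the same strand and moved in opposite directions, is 5.09 kb, and that between eEFSec and Sdc is 6.18 kb. cv-2 and Sdc both run toward dom, so their starts are farther off than their gene bodies, at 56.0 and 158 kb from the start of dom. The intervals of cv-2 and Sdc lie above equal levels, and those of eEFSec, CG9485 and dom below.

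Within 100 kb of the dom gene body the annotation holds 25 other protein coding genes, of which 6 (24.0%) were listed, 3 higher and 3 lower. At an adjusted p below 0.01, or with every log2 ratio moved up by 0.1, Arms and CG9485 dropped out and 3 higher and 1 lower remained. Over the whole genome 21.5% of annotated protein coding genes were listed, and on 2R 21.3%, so the share near dom is close to that elsewhere. The 19 annotated noncoding genes and transposable elements of the window, most of them snoRNA genes inside dom, were not listed. Besides the 4 genes, Arms, 13.0 kb to the left of dom, was lower, at 0.833 times the wild type level (log2 ratio -0.26, SE 0.09, adjusted p 0.0117 by DESeq2), and CG30393, 55.9 kb to the left, was higher at a log2 ratio of 2.70 (SE 0.71, adjusted p 0.00103 by DESeq2) in the authors' deposited table. CG30393 is a rare transcript with a mean normalized count of 7.82, and its fold of 6.48 has a wide 95% interval, from 2.48 to 16.9.

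The protein coding genes directly next to dom, CG30394 on the left and BBS9 on the right, were not in the table. Farther left, CG33655, Panx, which acts in transposon silencing, and the ribosomal protein gene RpL29 were not listed either, among others. Listed genes lie among these: CG9485 is nearer to dom than Panx, and Arms is nearer than RpL29. On the right, BBS9, CG9822 and CG17974 lie between dom and cv-2, bisc lies between cv-2 and eEFSec, and the peroxisomal oxidase genes Acox57D-p and Acox57D-d lie between eEFSec and Sdc. For genes missing from the table the ratio is unknown: they may have missed the threshold or may not have been tested. The remaining 9 genes not listed, all on the left, were ASPP, Rgk3, CG30391, CG34203, MFS16, CG10505, CG30392, Sgf29 and CG9752.

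Just outside the window on the left were CG44245 at 110 kb and the glycogenin gene Gyg at 113 kb, for which the authors' deposited table gave log2 ratios of -0.52 and -0.43. On the right, the next listed genes were CG10433 at 264 kb and clt at 275 kb, and the authors' deposited table gave 1.38 and -0.69 as their log2 ratios. None of the 16 protein coding genes between Sdc and CG10433 was listed, among them Sara, a Smad anchor, and Egfr, the receptor for epidermal growth factor. With a window of 50 kb, 4 of 21 protein coding genes were listed, 1 higher and 3 lower, and with 200 kb 14 of 59 were, 6 higher and 8 lower.

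**Figure D2:**
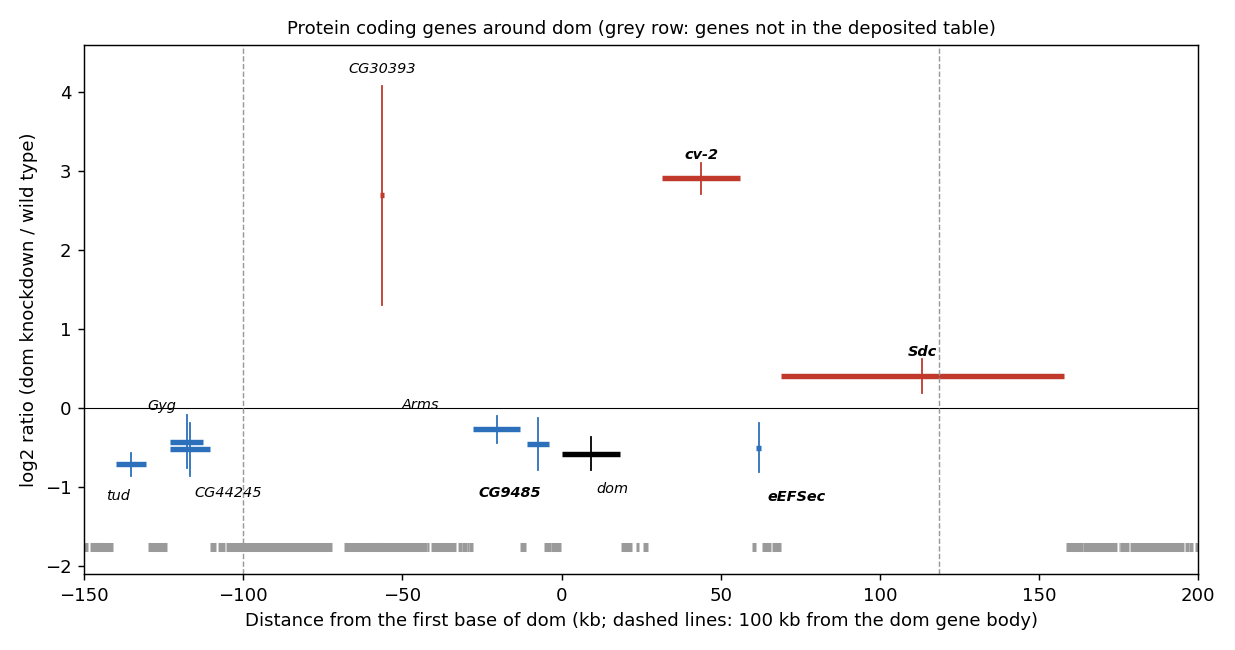
Log2 ratio (dom knockdown over wild type) of protein coding genes by distance in kb from the first base of dom. Horizontal bars span each listed gene (red higher, blue lower, black dom), vertical lines are 95% intervals, and the grey row marks genes not in the deposited table. cv-2 at 2.91 stands between unlisted genes, with eEFSec at -0.50 to its right.

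Within the BMP and activin pathway, the listed extracellular modulators were all higher. Of the 6 listed Smads, Smad regulators and nuclear targets 4 were lower and 2 higher, beside 1680 lower among all 3326 listed genes. Of 15 extracellular modulators, 7 (46.7%) were listed and all 7 were higher, beside 13.9% of all tested genes. cv-2 had to be listed to be chosen, and without it 6 of 14 (42.9%) were listed, all higher. The median log2 ratio of the 7 was 0.58, and without cv-2 the other 6 had a median of 0.58. The median of -0.20 over all listed genes mixes 1646 higher and 1680 lower genes, so it is no like comparison. Of the 1646 higher genes 757 changed at least 2-fold, and of the 7 modulators 3 did. The list includes Cow, whose product is best known for binding Wingless, and without Cow 6 of 14 were listed, all higher. This list and those below were put together with earlier results of these data known, and no set test was made. The share of a list counts all its genes, tested or not. The shares of all tested genes leave untested genes out, and 21.5% of annotated protein coding genes were listed in either direction.

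Besides cv-2, the listed modulators were srw, cv-d, Fs, nord, Cow and kek5. The secreted factor gene nord, a BMP modulator of the wing, was 2.02-fold higher (log2 ratio 1.02, SE 0.13, adjusted p 7.70e-13 by DESeq2) in the authors' deposited table. Shrew (srw), needed for BMP signalling in the early embryo, had a log2 ratio of 2.92, close to that of cv-2, but at a mean normalized count of 15.2 and with an SE of 0.60 in the authors' deposited table. The follistatin gene Fs, whose product binds activin, had a log2 ratio of 0.58 (SE 0.20), and cv-d, whose product is a lipoprotein needed like cv-2 for wing crossveins, had one of 0.57 (SE 0.20) in the authors' deposited table. Of the exon bases of Fs, 30.0% overlap genes on the other strand. The proteoglycan gene Cow and kek5, which encodes a transmembrane modulator of BMP signalling, were each slightly higher (log2 ratios 0.44 and 0.43) in the authors' deposited table. The other 8, sog, tsg, cv, tld, tok, magu, Col4a1 and vkg, were not listed, and 54.9% of the exon bases of cv are shared with other genes. With every log2 ratio moved down by 0.1, or at an adjusted p below 0.01, 3 of the 7 still passed, all higher.

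Among the ligands 2 of 7 (28.6%) were listed, beside 28.0% of all tested genes and 21.5% of annotated protein coding genes. The activin ligand gene Actbeta was lower, at 0.566 times the wild type level (log2 ratio -0.82, SE 0.17, adjusted p 1.43e-05 by DESeq2), and mav was higher at a log2 ratio of 0.61 (SE 0.24) in the authors' deposited table. The BMP ligand genes dpp, gbb and scw were not listed, nor were daw and myo. Of 5 receptor genes, sax, a type I BMP receptor, was marginally lower, at 0.870 times the wild type level (adjusted p 0.0449 by DESeq2) in the authors' deposited table, and tkv, wit, put and babo were not listed.

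Of 15 Smads, Smad regulators and nuclear targets, 6 (40.0%) were listed, 4 lower and 2 higher. Over all tested genes 28.0% were listed in either direction, 14.2% lower and 13.9% higher. The targets salm and salr, spalt zinc finger genes that also have BMP-independent roles in neurons, were at 0.450 and 0.681 times the wild type level in the authors' deposited table. Dad, an inhibitory Smad gene that BMP signalling itself induces, was at 0.595 times the wild type level (log2 ratio -0.75, SE 0.12, adjusted p 3.75e-08 by DESeq2), and Smox, the activin-branch Smad gene, at 0.698 times, in the authors' deposited table. The T-box gene bi (optomotor-blind), another target, and nmo, a kinase gene that limits Mad, were higher, by 1.31-fold and 1.27-fold in the authors' deposited table. Mad, Med, shn, brk, Smurf, Sara, spict, Snoo and hiw were not listed. All 6 passed under the shifts of 0.1 and at an adjusted p below 0.01.

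**Figure D3:**
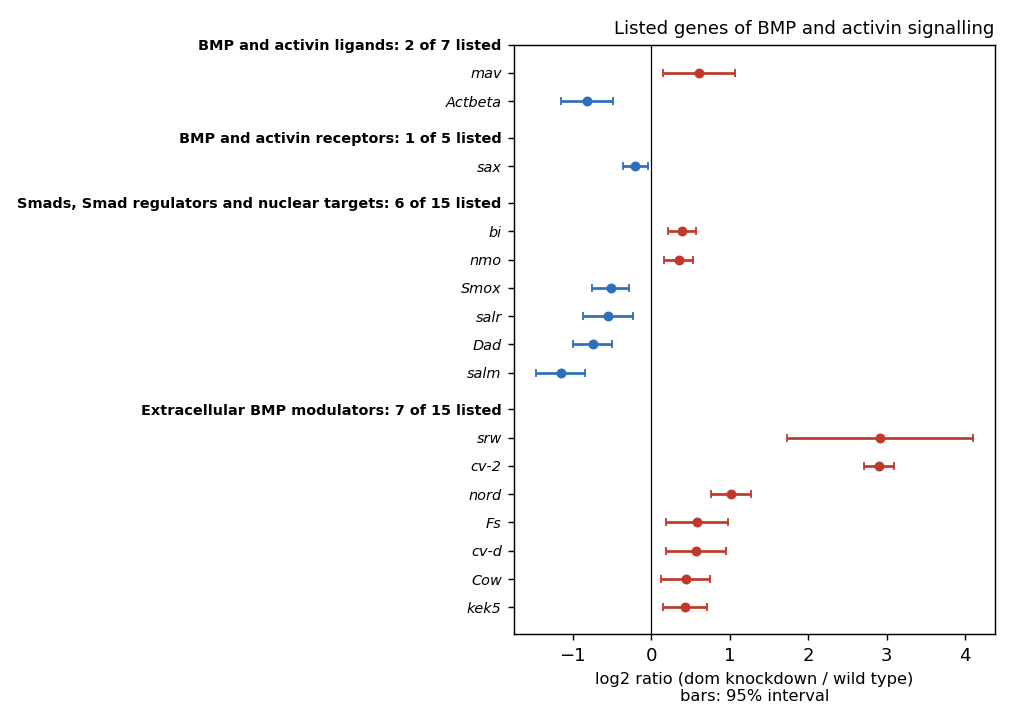
Log2 ratio (dom knockdown over wild type) of each listed gene of the BMP and activin lists, with 95% intervals, red where higher and blue where lower. The 7 extracellular modulators are all right of 0. In the list of Smads, Smad regulators and nuclear targets, salm, Dad, salr and Smox are left of it and bi and nmo right of it.

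Of the 4 core protein genes in the heparan sulfate proteoglycan list Sdc, which had to be listed to be chosen, was the only one listed. The genes dally, dlp and trol were not listed. Cow, described above with the extracellular modulators, also encodes a heparan sulfate proteoglycan and was higher. Of 19 genes for the synthesis and editing of the sugar chains, 7 (36.8%) were listed, 3 higher and 4 lower, beside 28.0% of all tested genes. The largest change was in Hs3st-B, a heparan sulfate sulfotransferase gene, at 0.224 times the wild type level (log2 ratio -2.16, SE 0.18, adjusted p 7.12e-31 by DESeq2) in the authors' deposited table. The other 3 lower genes were Papss, sgl and sll: Papss, which makes the sulfate donor, was at 0.683 times the wild type level, sgl, which makes the sugar acid precursor, at 0.702 times, and sll, the Golgi transporter of the sulfate donor, at 0.838 times, in the authors' deposited table. In the other direction, Hs6st, another sulfotransferase gene, Sulf1, which encodes an enzyme that removes sulfate, and beta3GalTII, which extends the linker of the chain, were higher, by 1.34-fold, 1.30-fold and 1.24-fold in the authors' deposited table. The polymerase genes ttv, sotv and botv, the nucleotide sugar transporter gene frc and the enzyme genes sfl, Hs2st, Hs3st-A, Hsepi, oxt, beta4GalT7, GlcAT-I and Notum were not listed. Of the exon bases of frc, 100% are shared with Coq4, and whether its reads could be counted is unknown. With every log2 ratio moved down by 0.1, none of the 3 higher genes passed, and with every ratio moved up by 0.1, 3 of the 4 lower ones did. At an adjusted p below 0.01, 1 higher and 3 lower genes passed.

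Among 5 partners of Syndecan, 2 (40.0%) were listed, beside 28.0% of all tested genes. The Slit receptor gene robo2 was 1.37-fold higher and robo1 was at 0.800 times the wild type level in the authors' deposited table. At an adjusted p below 0.01, or with every log2 ratio moved up by 0.1, robo1 no longer passed. The ligand gene sli, robo3 and the receptor phosphatase gene Lar were not listed. Of the exon bases of robo2, 41.0% are shared with noncoding genes, and of those of Lar, 83.6% are shared with CG46244.

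Of 8 genes of glycogen metabolism, CG9485 among them, 6 (75.0%) were listed and all 6 were lower, beside 14.2% of all tested genes, with a median log2 ratio of -0.53. CG9485 had to be listed to be chosen, and without it 5 of 7 (71.4%) were listed, all lower. AGBE, the branching enzyme gene, was at 0.598 times the wild type level (log2 ratio -0.74, SE 0.16), the glycogen synthase gene Glys at 0.648 times (log2 ratio -0.63, SE 0.09, adjusted p 1.30e-09 by DESeq2) and the phosphoglucomutase gene Pgm1 at 0.653 times (log2 ratio -0.62, SE 0.11) in the authors' deposited table. The phosphorylase gene Glyp, which breaks glycogen down as CG9485 does, and Gyg, which primes its synthesis, were at 0.795 and 0.745 times the wild type level in the authors' deposited table. UGP, which makes the sugar donor for glycogen, and the phosphorylase kinase gene PhKgamma were not listed. With every log2 ratio moved up by 0.1, or at an adjusted p below 0.01, 3 of the 6 passed, all lower.

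Of 9 genes for selenocysteine incorporation and selenoproteins, eEFSec and SecS, whose product makes selenocysteine on its tRNA, were listed and lower. SecS was at 0.824 times the wild type level (log2 ratio -0.28, SE 0.11) in the authors' deposited table. The selenoprotein genes Sps2, BthD and SelG were not listed, nor were Sbp2, Sps1, Pstk and Secp43. Of the exon bases of Pstk, 100% are shared with Tim9b, and whether its reads could be counted is unknown. The listed share, 22.2%, includes eEFSec, which had to be listed to be chosen. It stands beside 28.0% of all tested genes and 21.5% of annotated protein coding genes.

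**Figure D4:**
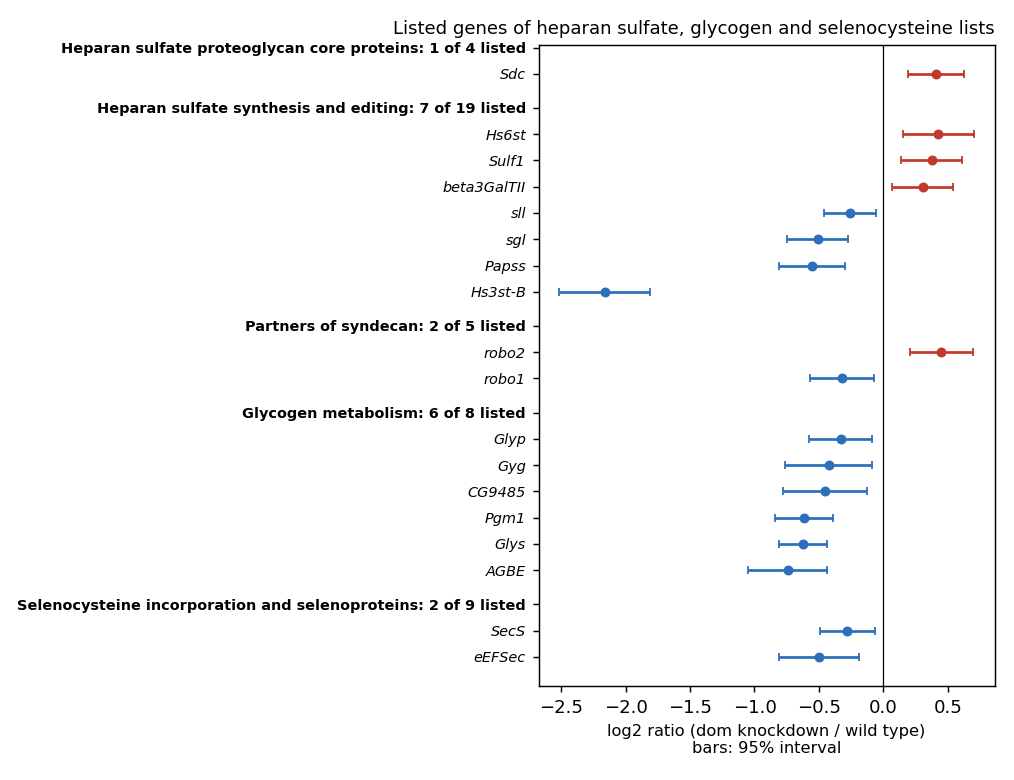
Log2 ratio (dom knockdown over wild type) of each listed gene of the heparan sulfate, glycogen and selenocysteine lists, with 95% intervals, red where higher and blue where lower. The 6 glycogen genes lie between -0.74 and -0.33, and Hs3st-B stands apart at -2.16.

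Of 43 cell type markers 18 were listed and 25 were not. Not listed were the neuron markers elav, nSyb, brp, VAChT and VGlut and the glia markers moody, wrapper, Eaat1, nrv2 and loco. All 4 listed of 9 glia markers were higher, with log2 ratios from 0.56 to 1.94, and all 5 listed of 10 neuron markers and 4 listed of 6 blood cell markers were lower, and in the authors' deposited table their median log2 ratios were -0.74 and -1.35. Of 7 neuroblast markers wor was higher and grh lower, at 0.61 and -0.79 on the log2 scale, while dpn, ase, mira, klu and insc were not listed. For trachea, muscle and fat body 1 marker each was listed, trh lower and Act57B and apolpp higher. Over all tested genes 28.0% were listed, 13.9% higher and 14.2% lower, and 21.5% of annotated protein coding genes were listed. Whether a shift in cell types had a part in the ratios of cv-2, Sdc, CG9485 and eEFSec was not tested.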

How the data were processed

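RNA was measured in 6 libraries, 3 dom knockdown and 3 wild type, grouped by their titles. The tools of the authors were STAR 2.3.0e, HTSeq 0.6.1, SAMtools 0.1.19, FastQC 0.11.2 and an unstated version of DESeq2, on build dm6, per the submitters' processing notes. The annotation release, counting settings and shrinkage, if any, were not given in the sources used here. Per the file headers, the authors deposited a mean normalized count (a signal that is never negative), a log2 ratio, its standard error, a Wald statistic score, and p-values before and after adjustment, all in UTF-7, which was decoded. The statistic equalled the deposited ratio over its standard error within 9.77e-14. Read depth per library is unknown, so precision is known only through that error, 0.06 to 0.79 over listed genes.

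Signs were turned to knockdown over wild type, and 95% intervals are normal limits from the deposited error. The number of genes tested, 11859, was recovered from adjusted p, p and rank in 2883 rows exactly (within 0.01); tested on simulated data, this recovered the number of 12000 genes in 5 of 5 runs. Symbols matched 3264 of 3326 IDs. Positions and exons came from Ensembl release 115 (BDGP 6.54, dm6 coordinates). Distances are gaps between gene bodies. Members, lists and the rule for named genes (dom, w, Dcr-2, the 4 genes, neighbours within 100 kb and the nearest listed genes beyond, list members, and the genes next to cv-2 by adjusted p) were chosen with earlier results of these data known. Arc1 and CG15784 were named after their values were seen. In the authors' deposited table Dcr-2, which both groups carry as a transgene, was 1.87-fold higher. Python 3.11.15, pandas 2.3.3 and SciPy 1.17.1 were used.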

Additional observations from a re-analysis of the deposited data

How the results depend on the processing

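The 4 ratios and 4 counts were recomputed with an adjusted p below 0.01, with every log2 ratio moved up or down by 0.1, with changes of at least 2-fold only, and with a minimum of 50 for the mean normalized count. The ratios were also held to Bonferroni adjustment. The count near dom was also made with windows of 50 and 200 kb, by gene starts, and with protein coding genes only. Of the 48 values from all these settings, 31 stayed on their side of the threshold or within 1.5 times. Some could not change: the minimum of 50 could not remove any of the 4 genes, whose lowest mean was 328. cv-2 passed in every setting. Under Bonferroni adjustment, and among changes of at least 2-fold, Sdc (0.41), CG9485 (-0.45) and eEFSec (-0.50) did not pass. CG9485 also did not pass at an adjusted p below 0.01 (-0.45) or with ratios shifted up (-0.35). At an adjusted p below 0.01 the 16 listed genes of the BMP lists became 10, the 10 of the heparan sulfate lists 6, and the 8 of the glycogen and selenocysteine lists 4, which was also 4 with ratios shifted up. At 2-fold or more these counts were 4, 1 and 0. Within 100 kb of dom, 6 genes were listed, 2 of them at 2-fold or more, and 14 within 200 kb. Over all listed genes, 49.5% were higher, and 59.9% or 41.7% of those still passing with ratios shifted up or down by 0.1. A shift can only remove genes here, because genes outside the table have no ratio.

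No paired analysis was possible because the deposited table held no values per library, and for the same reason leaving out each library was not run. No depth per library is known, so how far depth limited the number of genes listed could not be examined.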
